A study of Mus musculus with 6 samples.

Results

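The osteoclast axis was followed through 10 genes in the apical mesenchyme of mouse molars, picked by symbol from the 25899 genes of the deposited table, and all 10 were found there. They were the RANK ligand (RANKL) gene Tnfsf11 with its receptor Tnfrsf11a (RANK) and its decoy receptor Tnfrsf11b (osteoprotegerin), Csf1 with its receptor Csf1r, the osteoclast effectors Ctsk, Acp5 and Calcr, and the ligand and receptor pair Pthlh (PTHrP) and Pth1r. The 6 libraries came from first molars of the lower jaw at postnatal day 7.5, of which the apical portion of the pulp had been taken. The 3 mutant libraries carried the Gli1-CreER driver with floxed Bmpr1a alleles (Gli1-CreER;Bmpr1afl/fl), and the 3 control libraries carried the floxed alleles (Bmpr1afl/fl) with no driver named. All were of a mixed C57Bl6/129S6/SvEvTac background. Controls 1 and 2 were littermates of mutants 1 and 2 (litter 1), and control 3 was a littermate of mutant 3 (litter 2). CreER is a recombinase that acts after tamoxifen, and its activity here is limited to cells that use the Gli1 promoter and their descendants; the labels used here state neither the tamoxifen schedule, nor whether controls were given it, nor whether molars were pooled. P-values therefore measure the spread between these libraries, which may be partly technical.

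Osteoclasts are bone-resorbing cells that form by fusion of monocyte and macrophage precursors. Mesenchymal cells supply CSF1, which keeps the precursors alive, and RANKL, which binds RANK and drives their differentiation, while osteoprotegerin binds RANKL and blocks it. PTHrP, acting through PTH1R, is known to raise RANKL and lower osteoprotegerin in bone and around teeth, and this circuit opens the bone through which a tooth erupts. BMPR1A receives bone morphogenetic protein signals at the cell surface, and the comparison addressed what its loss from Gli1-lineage cells changes in the developing tooth.

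Of these 10 genes, 8 had enough reads for the test across all genes and 0 of them passed it. The RANKL gene and the resorption gene Acp5 were highest in control 2 and control 3 and low in control 1 and all mutants, and the ratio of Tnfsf11 to Tnfrsf11b was lower in every mutant than in every control, as was the ratio to Tnfrsf11b of 1.21% of all genes with reads enough for it (1.42% without overlap in either direction). That ratio rests on 4 to 11 reads of Tnfsf11 in each mutant and on 11 in control 1. Csf1, Csf1r and Tnfrsf11a were lowest in control 3, as were all 12 listed macrophage markers. Levels are in RPM, reads per 1000000 mapped reads, and each change is the mutant mean less the control mean of log2(RPM + 1), a scale that shrinks changes of genes with few reads.

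Depth ran from 15916045 to 20609420 reads on genes per library, so that 3 reads, the smallest count treated as detectable, were worth 0.0987 to 0.126 RPM. The floxed gene, Bmpr1a, averaged 136 ± 14.4 RPM over controls and 113 ± 6.51 RPM over mutants (SD, n = 3 for each genotype, as below), without overlap, a change of -0.27 (SE 0.14; limma with Benjamini-Hochberg adjustment, adjusted p 1.00). Among the 14444 genes averaging 1 RPM or more, 0 (0.0%) passed an adjusted p of 0.05 by limma (0 also by its voom variant), and 152 (1.05%) had an unadjusted p under 0.05. All 7 papilla mesenchyme markers listed, such as Msx1, Barx1 and Lhx8, were at 3 reads or more in every library. So were all 9 enamel epithelium markers, whose summed level ranged from 2208 RPM in control 2 to 48899 RPM in mutant 1, so epithelial transcripts were present throughout. Of the 7 papilla markers, 2 were lower in mutants at an unadjusted p under 0.05 by limma, where 0.692% of all tested genes were. These were Lhx8 (-0.46, unadjusted p 0.018) and Lhx6 (-0.54, unadjusted p 0.0431), and neither passed adjustment. In bulk tissue, fewer cells of a type and less RNA per cell cannot be told apart.

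Of the 10 genes, 8 reached the mean of 1 RPM needed for the test, and Tnfsf11 and Calcr did not. Of the 8, 0 passed the adjusted threshold (limma, Benjamini-Hochberg; 0.0% of all tested genes). An unadjusted p under 0.05 was found for 0 of the 8, against 1.05% of all (0.36% higher and 0.692% lower in mutants), and groups without overlap for 0, against 2.64% of all (0.976% higher and 1.67% lower). The change was below 0 for 5 and above 0 for 3, with a median of -0.07, beside -0.01 over all tested genes, of which 54.4% were below 0. With litter as a block, 0 of the 8 had an unadjusted p under 0.05, against 2.02% of all tested genes.

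**Figure D1:**
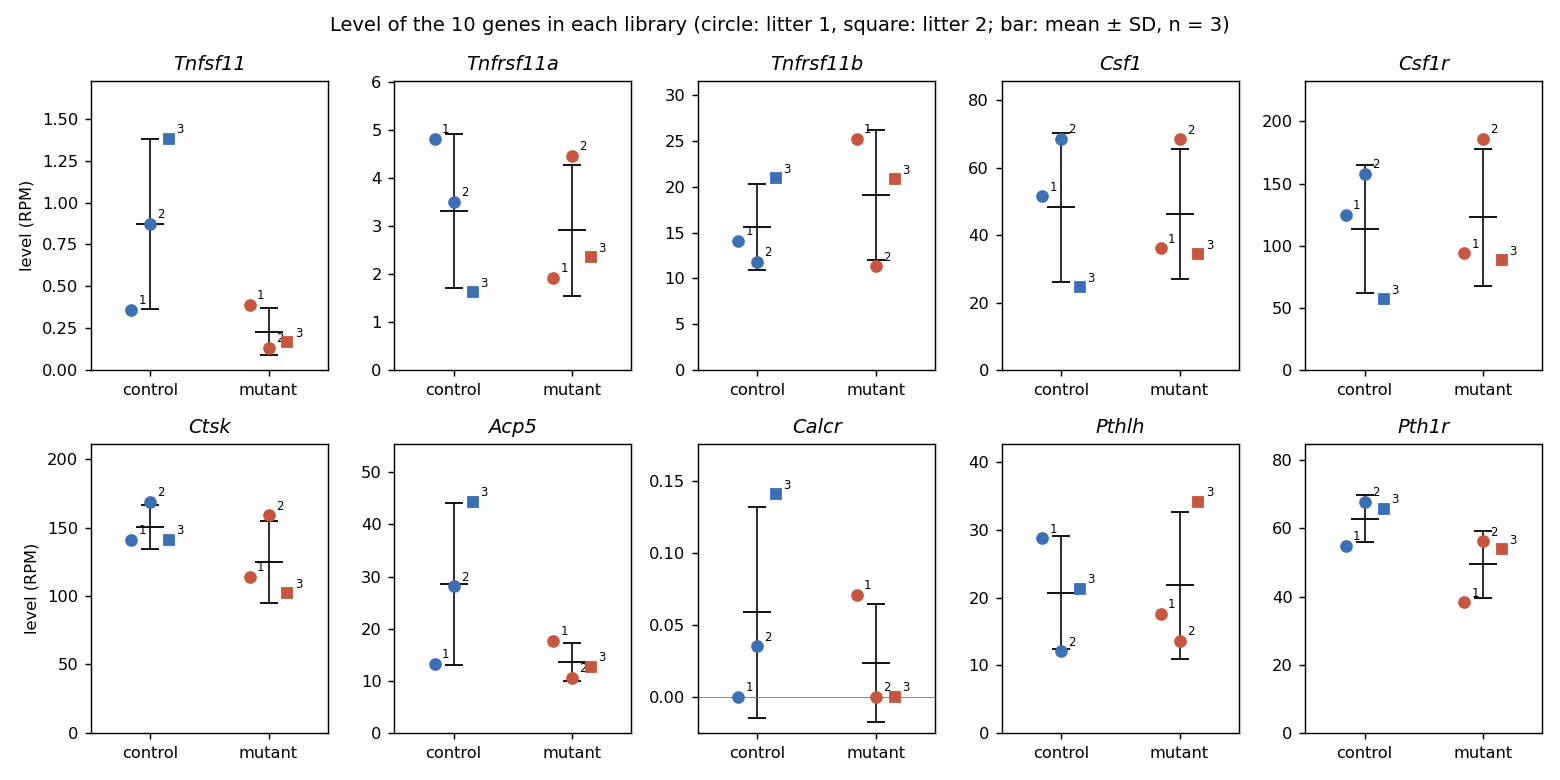
Level of each gene in RPM (vertical axes, linear and different for each gene) in the 3 control and 3 mutant libraries; numbers mark replicates, circles litter 1, squares litter 2, and bars the mean ± SD. Tnfsf11 and Acp5 are highest in controls 3 and 2, while Csf1, Csf1r and Tnfrsf11a are lowest in control 3.

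Levels of different genes were compared per kilobase of exon, on the mean over the 6 libraries. Ctsk, at 91.1 ± 17.0 RPM per kb (SD, n = 6), stood above the other genes, and its range over libraries, 67.6 to 112, met that of no other. Csf1r followed at 24.2 ± 9.80 and Pth1r at 20.0 ± 3.76 RPM per kb. Pthlh (13.1), Acp5 (12.4), Csf1 (5.21 to 14.5 over libraries) and Tnfrsf11b (6.16 RPM per kb) came next, and from Csf1r to Tnfrsf11b the range of each gene overlapped that of the next. The RANKL and RANK genes were far lower, Tnfrsf11a at 0.618 and Tnfsf11 at 0.246 RPM per kb, and Calcr was at 0.0105. The osteoprotegerin gene thus exceeded the RANKL gene per kilobase in every library, since the lowest value of Tnfrsf11b (4.03) lay above the highest of Tnfsf11 (0.616 RPM per kb).

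The sequences just upstream of 3 of the genes are shown because Tnfsf11 and Acp5 were both highest in controls 3 and 2 (values below), while Ctsk, the other resorption enzyme, varied less between libraries. Each is the 250 bases before the most upstream start in RefSeq on GRCm38.p6 (8 of the 10 genes had an entry), written 5′ to 3′ on the gene's strand. Acp5 had 3 annotated starts and Tnfsf11 and Ctsk 1 each, and which start was used in these libraries was not tested. Capitals mark matches to the NFAT core GGAAA or the PU.1 site GAGGAA on either strand; NFAT is the factor that RANK signalling activates and PU.1 a factor of the myeloid lineage.
Tnfsf11: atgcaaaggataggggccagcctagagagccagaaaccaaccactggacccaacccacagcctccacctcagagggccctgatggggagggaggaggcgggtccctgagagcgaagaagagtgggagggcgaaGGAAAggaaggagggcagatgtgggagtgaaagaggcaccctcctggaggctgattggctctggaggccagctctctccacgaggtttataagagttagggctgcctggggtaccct
Acp5: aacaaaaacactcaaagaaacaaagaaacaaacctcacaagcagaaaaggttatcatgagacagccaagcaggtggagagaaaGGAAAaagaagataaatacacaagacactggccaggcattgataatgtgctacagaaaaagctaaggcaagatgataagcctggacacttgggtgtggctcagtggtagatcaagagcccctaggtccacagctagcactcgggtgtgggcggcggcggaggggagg
Ctsk: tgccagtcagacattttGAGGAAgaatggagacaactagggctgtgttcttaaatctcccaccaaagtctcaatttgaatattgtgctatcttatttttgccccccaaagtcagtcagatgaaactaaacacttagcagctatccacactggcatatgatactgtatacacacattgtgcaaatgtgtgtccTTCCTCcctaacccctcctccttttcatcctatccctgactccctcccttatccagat
The Tnfsf11 stretch is chr14:78308044-78308293 (minus strand), that of Acp5 chr9:22135747-22135996 (minus strand) and that of Ctsk chr3:95498960-95499209 (plus strand). Tnfsf11 and Acp5 each held 1 GGAAA match, a word found in 55.6% of all 32851 RefSeq stretches of this length. Ctsk held 2 GAGGAA matches and no GGAAA; 23.3% of all stretches hold GAGGAA, and the word can overlap GGAAA. None of the 3 held the AP-1 word TGANTCA (6.75% of all stretches), the RUNX word TGTGGT (14.0%) or the MITF word CATGTG (12.3%). These matches describe letters and not binding.

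Tnfsf11 (chromosome 14, 78277446 to 78308043) encodes RANKL, the ligand that commits precursors to the osteoclast fate. It was at 0.362, 0.874 and 1.38 RPM in controls 1 to 3 and at 0.391, 0.133 and 0.168 RPM in mutants 1 to 3. Controls 2 and 3 lay above every mutant, while control 1 and mutant 1, at 11 reads each, could not be distinguished, so the groups overlapped. The reads behind these values were few, 75 over the 3 controls and 19 over the 3 mutants, and the 4 reads of mutant 3 give an exact 95% Poisson interval of 0.0457 to 0.429 RPM, for counting error only. The mean was 3.78 times higher in controls (0.871 ± 0.508 against 0.231 ± 0.140 RPM). With each library left out in turn, a check chosen after seeing the data, that fold ran from 2.68 without control 3 to 5.79 without mutant 1. Under the filter it was not tested; in the fit without a filter its change was -0.57 (SE 0.20; unadjusted p 0.0273 by limma, Benjamini-Hochberg adjusted p 1.00). In that fit 1.78% of 19290 genes had an unadjusted p under 0.05, and 1.01% had one and were lower in mutants. A two-sided exact permutation test on log2(RPM + 1) gave p = 0.2, where 3 against 3 cannot go below 0.1. The change was -0.35 in litter 1 and -1.03 in litter 2, which has 1 library per genotype and allows no test.

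Tnfrsf11b (chromosome 15, 54250619 to 54278484) encodes osteoprotegerin, the soluble decoy that keeps RANKL from RANK. It was at 14.1, 11.8 and 20.9 RPM in controls 1 to 3 and at 25.2, 11.3 and 20.8 RPM in mutants 1 to 3. Mutant 1 was highest and mutant 2 lowest, and the groups overlapped. The change was 0.25 (SE 0.32; limma with Benjamini-Hochberg, adjusted p 1.00). Control 3 and mutant 3, from the same litter, were almost equal.

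The balance of ligand and decoy within a library does not depend on how libraries were scaled. Tnfrsf11b had 38.8, 13.5 and 15.2 times the RPM of Tnfsf11 in controls 1 to 3 and 64.5, 85.2 and 124 times in mutants 1 to 3. The log2 ratio of Tnfsf11 to Tnfrsf11b was -4.32 ± 0.83 in controls and -6.46 ± 0.47 in mutants (mean ± SD), a difference of -2.14. Every mutant lay below every control, with control 1 (-5.28) and mutant 1 (-6.01) the nearest. That pair had 11 reads of Tnfsf11 each, with overlapping Poisson intervals (0.181 to 0.648 and 0.195 to 0.699 RPM), so its gap came from Tnfrsf11b (14.1 against 25.2 RPM) and was not resolved beyond counting error. For comparison, 1.21% of the 15699 genes with at least 3 reads in every library had a ratio to Tnfrsf11b that was lower in all mutants, and 1.42% did not overlap in either direction. The ratio joins genes chosen with earlier results known and was given no test, and it rests on 4 reads of Tnfsf11 in each of mutants 2 and 3. With each library left out in turn the difference ran from -2.62 to -1.86.

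**Figure D2:**
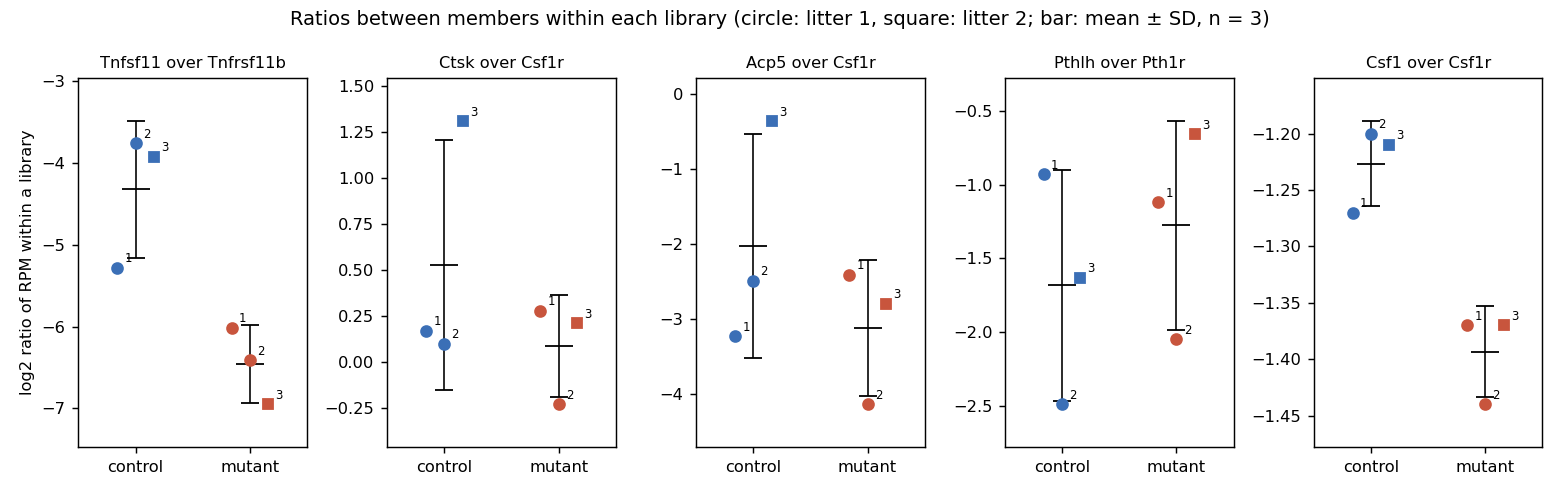
Log2 ratio of the RPM of the named genes within each library (vertical axes, different for each ratio), by genotype; numbers mark replicates, circles litter 1, squares litter 2, and bars the mean ± SD. The ratio of Tnfsf11 to Tnfrsf11b runs from -5.28 to -3.76 in controls and from -6.95 to -6.01 in mutants, and that of Csf1 to Csf1r spans only 0.24 over all 6 libraries.

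Tnfrsf11a (chromosome 1, 105780673 to 105849444) encodes RANK, the receptor on osteoclast precursors. It was at 4.81, 3.50 and 1.62 RPM in controls 1 to 3 and at 1.92, 4.46 and 2.35 RPM in mutants 1 to 3. Control 3 was lowest and control 1 highest, and the groups overlapped widely. The change was -0.12 (SE 0.37; limma with Benjamini-Hochberg, adjusted p 1.00), -0.36 in litter 1 and 0.35 in litter 2.

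Csf1r (chromosome 18, 61105572 to 61131139) encodes the CSF1 receptor, which marks monocytes, macrophages and osteoclasts. It was at 125, 158 and 56.9 RPM in controls 1 to 3 and at 93.9, 186 and 88.6 RPM in mutants 1 to 3. Mutant 2 was highest and control 3 lowest, so that the spread within each genotype exceeded the difference between them. The change was 0.15 (SE 0.43; limma with Benjamini-Hochberg, adjusted p 1.00), -0.09 in litter 1 and 0.63 in litter 2.

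Csf1 (chromosome 3, 107741048 to 107760469) encodes the ligand of this receptor. It was at 51.6, 68.5 and 24.6 RPM in controls 1 to 3 and at 36.2, 68.4 and 34.3 RPM in mutants 1 to 3. Its high and low libraries were those of Csf1r: control 2 and mutant 2 were highest and control 3 lowest. The change was -0.01 (SE 0.41; limma with Benjamini-Hochberg, adjusted p 1.00), -0.25 in litter 1 and 0.46 in litter 2.

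Although Csf1 and Csf1r each ranged widely, by 2.79 and 3.27 times between libraries, their ratio was nearly constant. The log2 ratio of Csf1 to Csf1r was -1.27, -1.20 and -1.21 in controls 1 to 3 and -1.37, -1.44 and -1.37 in mutants 1 to 3. The SD was 0.04 in each group, the means differed by -0.17, and every mutant lay below every control. Of the 15699 genes with at least 3 reads in every library, 0.86% had a ratio to Csf1r that was lower in all mutants, and 1.11% did not overlap in either direction. The difference, from -0.19 to -0.14 with each library left out in turn, was small beside the spread of either gene and was given no test.

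Markers of monocytes and macrophages moved with these genes. All 12 listed markers, among them Ptprc, C1qa, Mrc1 and Emr1 (the F4/80 gene), were at 3 reads or more in every library, and their summed level was 421, 510.5 and 171 RPM in controls 1 to 3 and 311, 693 and 300.2 RPM in mutants 1 to 3. That sum ranked the libraries in the same order as Csf1r, an order shared by 2.27% of all tested genes. All 12 markers were lowest in control 3, as were Csf1, Csf1r and Tnfrsf11a, against 31.0% of all tested genes. The part of macrophage content in the levels of these 3 genes was not tested.

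**Figure D3:**
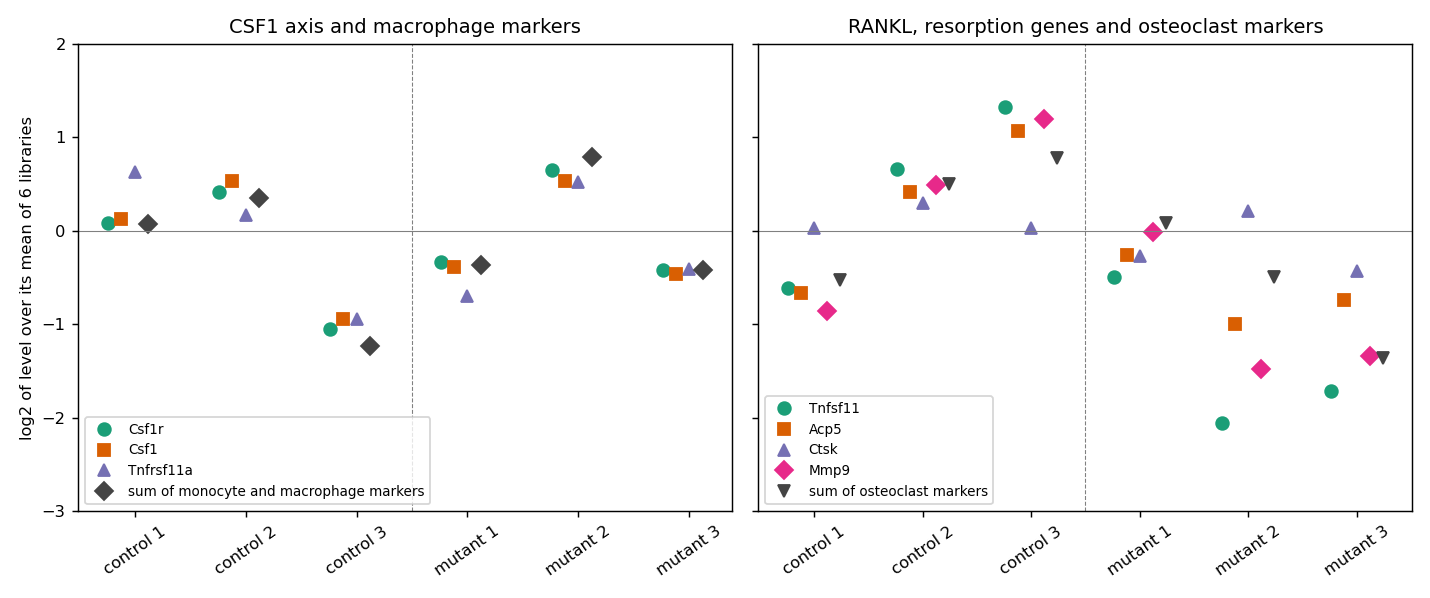
Level of each gene or summed marker list in each library as log2 of its ratio to the mean over the 6 libraries; control libraries stand left and mutants right of the dashed line, and libraries have no order within a group. Left, Csf1r, Csf1, Tnfrsf11a and the summed macrophage markers are all lowest in control 3; right, Tnfsf11, Acp5, Mmp9 and the summed osteoclast markers, which in control 3 are mostly Mmp9, are all highest there, while Ctsk stays within a 1.66-fold range.

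Acp5 (chromosome 9, 22126727 to 22135746) encodes tartrate-resistant acid phosphatase, the classical stain for osteoclasts. It was at 13.3, 28.2 and 44.4 RPM in controls 1 to 3 and at 17.7, 10.6 and 12.7 RPM in mutants 1 to 3. Controls 2 and 3 lay above every mutant and control 1 lay among the mutants, the same arrangement as for Tnfsf11. Acp5 had the largest change of the 8 tested genes, -0.89 (SE 0.41; unadjusted p 0.0663 by limma, Benjamini-Hochberg adjusted p 1.00). The means were 28.6 ± 15.6 RPM in controls and 13.6 ± 3.63 RPM in mutants. The change was -0.47 in litter 1 and -1.73 in litter 2. It rested on single controls: without control 3 it was -0.51, and without control 1 it was -1.34 (unadjusted p 0.00335).

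Ctsk (chromosome 3, 95499210 to 95509387) encodes cathepsin K, the collagen-cleaving protease of osteoclasts, which some fibroblast-like cells also make. It was at 141, 169 and 141 RPM in controls 1 to 3 and at 114, 159 and 102 RPM in mutants 1 to 3. Mutants 1 and 3 were below all controls and mutant 2 was among them. The change was -0.28 (SE 0.20; unadjusted p 0.191 by limma, Benjamini-Hochberg adjusted p 1.00), -0.19 in litter 1 and -0.46 in litter 2. Without mutant 2 it was -0.47 (unadjusted p 0.0387) and without mutant 3 it was -0.15. Ctsk ranked the libraries as neither Acp5 nor Csf1r did, and it varied by 1.66 times between libraries, against 4.20 times for Acp5. Relative to Csf1r, Acp5 ran from a log2 ratio of -3.23 to -0.36 in controls and from -4.14 to -2.41 in mutants, and Ctsk from 0.10 to 1.31 and from -0.23 to 0.28. Control 3 was the highest library for both ratios, and both overlapped between genotypes.

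Calcr (chromosome 6, 3685678 to 3764713) encodes the calcitonin receptor, a marker of mature osteoclasts. It had 0, 1 and 4 reads in controls 1 to 3 and 2, 0 and 0 reads in mutants 1 to 3. Only control 3 exceeded 3 reads, so Calcr was not detectable in the other 5 libraries at this depth and no fold was formed.

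The 6 osteoclast markers listed outside the 10 genes were Mmp9, Itgb3, Atp6v0d2, Ocstamp, Dcstamp and Oscar. They summed to 22.9, 46.6 and 56.6 RPM in controls 1 to 3 and to 34.9, 23.3 and 12.8 RPM in mutants 1 to 3, and 3 of the 6 were at 3 reads or more in every library. Mmp9 made up most of the sum in control 3 (46.6 RPM). Itgb3, an integrin subunit gene and the other tested marker, went otherwise, at 11.2, 16.9 and 7.13 RPM in controls 1 to 3 and at 13.9, 14.9 and 4.65 RPM in mutants 1 to 3. The remaining 4 markers had 35 reads or fewer in any library. Among them, Atp6v0d2 did not overlap, at 0.494, 0.525 and 1.24 RPM in controls 1 to 3 and 0.426, 0.333 and 0.126 RPM in mutants 1 to 3. Of all tested genes, 1.67% were without overlap and lower in mutants. Atp6v0d2 lay under the filter, and without it the change was -0.42 (SE 0.18, unadjusted p 0.053 by limma). Of the 6, 5 were highest in control 3, as were Tnfsf11, Acp5 and Calcr, against 13.5% of all tested genes. That share is from genes of at least 1 RPM, while 6 of these 8 genes, all but Mmp9 and Acp5, lay below that level. Dcstamp and Oscar, the fusion receptor and a costimulatory receptor of osteoclasts, had 0 reads in control 1 and mutant 3. Mmp9, a gelatinase abundant in osteoclasts, was at 11.2, 28.6 and 46.6 RPM over controls and at 20.1, 7.29 and 8.05 RPM in mutants, a change of -1.15 (SE 0.55; limma with Benjamini-Hochberg, unadjusted p 0.0746, adjusted p 1.00). Mmp9 and Acp5 ranked the 6 libraries alike, from control 3 and control 2 through mutant 1 and control 1 to mutant 3 and mutant 2, as was noticed in the data. The osteoblast factor gene Runx2 had that order too, as did 9 of the 14444 tested genes (0.0623%) in all, Acp5, Mmp9 and Runx2 included. Tnfsf11 was also highest in control 3 and next in control 2, but its reads in the other 4 libraries were tied in pairs (11 and 11, 4 and 4) and give no order within a pair.

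Some bone markers stood high in the same libraries. Of 9 osteoblast and bone markers, 6 were highest in control 3, and the matrix gene Spp1 reached 96.1 RPM (control 2) and 159 RPM (control 3) against 3.36 to 5.20 RPM elsewhere. Ibsp was at 35.5, 65.9 and 154 RPM in controls 1 to 3 and at 23.6 to 29.9 RPM in mutants. The whole bone list did not follow that pattern, with summed levels of 1214 to 2277 RPM in controls and 681 to 2122 RPM in mutants. Bglap and Bglap2 were highest in mutant 1 (831 and 509 RPM), and Sp7 in control 2 (126 RPM). Ifitm5 was highest in control 3 (45.2 RPM) but lower in control 2 (5.53 RPM) than in mutant 3 (6.33 RPM). The erythroid markers were also highest in control 3, at a summed 1984 RPM against 177 to 610.2 RPM elsewhere. The part of bone or blood content in the levels of Tnfsf11 and Acp5 was not tested. Of 8 markers of lymphocytes, another known source of RANKL, Cd4 ran from 0.989 RPM in control 3 to 9.35 RPM in mutant 2 and Lck from 1.01 to 1.93 RPM. Control 3 and mutant 2 were also the lowest and highest libraries of the summed macrophage markers. The other 6 were at 0.566 RPM or less in every library, with Cd8a at 0 throughout. The T cell genes Cd3e and Cd3d had 1 read each, in mutant 2 and in mutant 3, and no reads in the other libraries. The list summed to 4.84, 8.46 and 2.65 RPM in controls 1 to 3 and to 5.29, 12.2 and 4.65 RPM in mutants 1 to 3, and its part in the Tnfsf11 level was not tested.

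Pthlh (chromosome 6, 147252109 to 147264013) encodes PTHrP, which dental epithelium and mesenchyme secrete. It was at 28.8, 12.1 and 21.3 RPM in controls 1 to 3 and at 17.6, 13.6 and 34.2 RPM in mutants 1 to 3. Mutant 3 was highest and control 2 lowest, and the groups overlapped. The change was 0.05 (SE 0.40; limma with Benjamini-Hochberg, adjusted p 1.00), -0.26 in litter 1 and 0.66 in litter 2. The 7 dental follicle and periodontal markers summed highest in control 1 (899.6 RPM) and mutant 3 (836 RPM), the 2 libraries with the most Pthlh, and to 357 to 439 RPM in the rest. Most of that sum was Postn, at 791 and 695 RPM in those libraries, and the list was not uniform: 3 of the 7, Tnmd, Acta2 and Tbx18, were highest in control 3, and Scx was highest in mutant 1. Of the 9 enamel epithelium markers, 4 were, like Pthlh, lowest in control 2 and highest in mutant 3: Krt5 (95.4 and 2076 RPM), Krt14 (81.5 and 1154 RPM), Cdh1 (15.5 and 221 RPM) and Epcam (3.53 and 59.4 RPM). The enamel matrix genes Amelx, Ambn and Enam were instead highest in mutant 1. The part of follicle or epithelial tissue in the Pthlh level was not tested. By the likeness rule, genes whose levels tracked Pthlh closely over the 6 libraries were Neto2 and Fbln2, with root mean square differences of 0.0952 and 0.105 on the log2 scale, where Pthlh itself varied by 0.515. The nearest to Ctsk were 2610027K06Rik, Epdr1 and Zeb2, at 0.0321, 0.0476 and 0.0491, where Ctsk varied by 0.253.

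Pth1r (chromosome 9, 110722085 to 110747145) encodes the shared receptor of PTHrP and parathyroid hormone, found on osteoblasts and follicle cells. It was at 54.9, 67.9 and 65.8 RPM in controls 1 to 3 and at 38.3, 56.3 and 53.9 RPM in mutants 1 to 3. Mutants 1 and 3 lay below all controls, and mutant 2 was just above control 1. The change was -0.35 (SE 0.18; unadjusted p 0.0945 by limma, Benjamini-Hochberg adjusted p 1.00), and it was of like size in litter 1 (-0.39) and litter 2 (-0.28). Without mutant 1 it was -0.18. The log2 ratio of Pthlh to Pth1r was -1.68 ± 0.78 in controls and -1.28 ± 0.71 in mutants, with overlap; 14.8% of genes had a ratio to Pth1r without overlap.

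**Figure D4:**
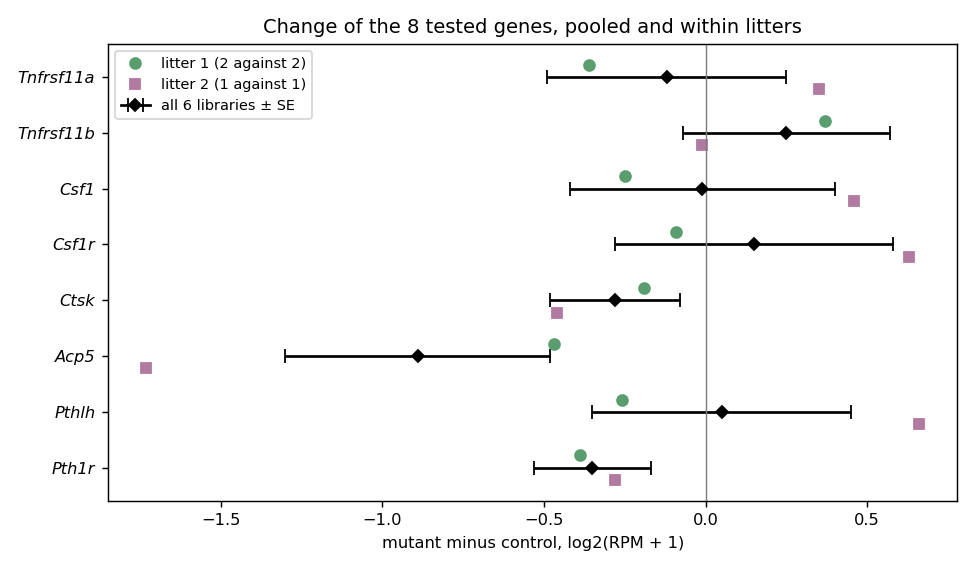
Change in log2(RPM + 1), mutants less controls (horizontal axis), for the 8 tested genes: diamonds with bars give the change over all 6 libraries ± SE, circles the change within litter 1 and squares that within litter 2. Acp5 has the largest change (-0.89), Acp5, Ctsk and Pth1r lie below 0 in both litters, and the other 5 genes lie on opposite sides of 0 in the 2 litters (Tnfrsf11b by -0.01 only).

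Whether the change differed between litters was tested with an interaction term, in which litter 2 gives 1 library per genotype. The lowest unadjusted p was 0.114 and the lowest adjusted p was 0.91 over the 8 genes (limma, Benjamini-Hochberg over all tested genes).

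The wider pathways were read from 4 lists, in which 0 genes passed adjustment (limma, Benjamini-Hochberg; 0.0% of all tested genes). In RANK signal transduction, 14 of 15 genes were tested, 0 had an unadjusted p under 0.05, and the median change was 0.00. Nfatc1, the transcription factor that drives osteoclast differentiation, was at 15.5, 15.5 and 14.4 RPM in controls and at 13.0, 13.8 and 12.2 RPM in mutants. The groups did not overlap, as for 1.67% of all tested genes lower in mutants, but the change of -0.21 had an SE of 0.14 (unadjusted p 0.186). The most abundant members were Tab2, at 103 to 116 RPM over the libraries, and the NF-kappaB subunit gene Nfkb1, at 44.3 to 65.0 RPM.

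Among fusion and resorption genes, 11 of 15 were tested, 0 had an unadjusted p under 0.05, and the median change was -0.03. Ckb (47.6 to 131 RPM) and Car2, the carbonic anhydrase of osteoclasts (41.1 to 101 RPM), were highest in control 3 and lowest in mutant 3. Among the other ligands, receptors and regulators of RANKL and CSF1 signalling, 12 of 15 were tested, 0 had an unadjusted p under 0.05, and the median was -0.03. Cxcl12, a chemokine that draws in precursors, ran from 119 RPM in control 3 to 545 RPM in control 2, and Wnt5a from 137 to 233 RPM. With litter as a block, 1 gene of that list, the guidance ligand Sema3a (-0.52), had an unadjusted p under 0.05 (0.041; 2.02% of all tested genes).

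The list of PTHrP receptor signalling had the lowest median change of the 4. Of 19 genes 16 were tested, 15 of them were below 0, where 54.4% of all tested genes were, and the median change was -0.11, beside -0.01 over all tested genes. At an unadjusted p under 0.05, 2 genes were lower, where 0.692% of all tested genes were, and 0 were higher. Nr4a2, an orphan nuclear receptor gene induced by cyclic AMP, was at 5.73, 5.04 and 6.25 RPM over controls and at 2.24, 3.46 and 4.27 RPM in mutants, a change of -0.65 (SE 0.23; unadjusted p 0.0251 by limma, Benjamini-Hochberg adjusted p 1.00). Its relative Nr4a1 also did not overlap, with no control below 5.99 RPM and no mutant above 5.45 RPM (-0.51, SE 0.22, unadjusted p 0.0515; with litter as a block 0.022). Groups without overlap and lower in mutants were found for these 2 genes of the 16, against 1.67% of all tested genes. Mef2c, a transcription factor gene downstream of the receptor in bone, had a change of -0.45 (SE 0.19, unadjusted p 0.0492; with litter as a block 0.0522) with overlapping groups. Gnas, which encodes the stimulatory G protein subunit and whose locus holds overlapping transcripts, was at 940.3 to 1272 RPM, and Prkar1a at 238 to 319 RPM, with changes of -0.11 and -0.03. Pth and Pth2r had 0 reads in every library, a limit of 3 reads each.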

How the data were processed

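RNA of the apical molar mesenchyme was measured in 3 mutant and 3 control libraries by poly(A) RNA sequencing with, per the labels' protocols, a NextSeq 500 instrument. The submitters' processing notes name TopHat2 and the mm10 build; the counting program and annotation are not given in the sources used here. The authors deposited log2 values, titled as normalized RPKM. Raised as powers of 2, 100% of values under 1000 reads were whole multiples (within 0.02 reads) of 1 step per column shared by all genes, so length had not been divided out. They were treated as log2 of RPM, an inference from the step; column minima (0.9 of a step) were set to 0 reads. Reads on genes made up 66.7% to 68.6% of the 1000000 mapped reads behind an RPM value.

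Genes averaging 1 RPM or more entered limma 3.58.1 (R 4.3.3) as log2(RPM + 1) (lmFit, eBayes with trend, no covariate, two-sided, Benjamini-Hochberg over all tested genes). The procedure was tested on simulated counts, with the same spread beyond counting error for all genes and with large changes only. That test does not measure its power in these libraries. Exon lengths are unions over the GENCODE M21 transcripts, and positions are RefSeq's on GRCm38.p6, the build of mm10. The members and lists were chosen with earlier results of these data known. Beyond the 10 genes, list genes were named where the unadjusted p was under 0.05, the groups did not overlap, or the gene was among the 2 most abundant of its list; the likeness rule named the 3 tested genes with the smallest root mean square difference from Ctsk and from Pthlh, each gene centred on its mean; 1 of these is not reported here. Sema3a and the single marker genes given with values were named after their values were seen. Older symbols were matched through RefSeq synonyms. Alternatives were a pseudocount of 0.1, dropping the filter or raising it to 5 RPM, median-of-ratios scaling, robust eBayes, litter and replicate blocks, litter 1 alone, limma voom and leaving out each library. Figures used matplotlib 3.10.9.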

Additional observations from a re-analysis of the deposited data

How the results depend on the processing

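Across the 15 alternatives, 0 of the 8 tested genes passed the adjusted threshold (limma, Benjamini-Hochberg); Tnfrsf11a was not tested at a mean of at least 5 RPM. Over all genes 0 passed, except that leave-one-out fits ran from 0 to 1 (the bone gene Spp1, without control 1). Tnfrsf11b, Ctsk, Acp5 and Pth1r kept their direction throughout, from 0.02 to 0.56, -0.47 to -0.15, -1.34 to -0.47 and -0.45 to -0.18. The others did not. Csf1 was at 0.0044 with median-of-ratios scaling and 0.0003 with voom, and in litter 1 alone Csf1r was at -0.09 and Pthlh at -0.26. Leave-one-out ranges were -0.43 to 0.30 for Csf1, -0.28 to 0.45 for Csf1r, -0.32 to 0.32 for Pthlh and -0.44 to 0.13 for Tnfrsf11a; the cause was not tested. Left out in turn, libraries moved the ratio difference of Acp5 to Csf1r from -1.69 to -0.26 (without control 3), of Ctsk to Csf1r from -0.65 to -0.05 (without control 3) and of Pthlh to Pth1r from 0.00 to 0.79.

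The replicate numbers of the columns paired the libraries only in part. The correlation across genes of same-numbered deviations from the group means was -0.033, 0.75 and 0.50 for numbers 1 to 3. Between libraries of different number it ran from -0.67 to 0.094. Control 3 and mutant 3 are also littermates. With the replicate block 524 genes had an unadjusted p under 0.05 in place of 152, Pth1r among them (unadjusted p 0.0309). The count was 344 without a filter, 292 with litter as a block and 319 in litter 1 alone, and ran from 68 to 325 over the leave-one-out fits. Depth limits Tnfsf11 and Calcr most.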

Other observations

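The likeness measure was also taken for 3 more of the genes, chosen after their values were seen. The genes nearest to Csf1r over the 6 libraries were Unc93b1, Mctp1 and Lrrc25, with root mean square differences of 0.0348, 0.0765 and 0.0824 on the log2 scale, where Csf1r itself varied by 0.562. Unc93b1 escorts nucleic acid-sensing Toll-like receptors in myeloid cells. Those nearest to Csf1 were Samd9l, Ptprj and Wdfy4 (0.0636, 0.0639 and 0.0732, against 0.532 for Csf1 itself). Acp5 had no neighbour that close: its nearest, the guidance ligand gene Ntn1, differed by 0.183, and Fam163b and P4ha3 by 0.226 and 0.236, against 0.690 for Acp5 itself.

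Other tissues were also represented unevenly. Odontoblast markers summed to 486 RPM in mutant 3 and 8277 RPM in mutant 1, with controls between 1799 and 6117 RPM. Dspp carried that sum (6872 RPM in mutant 1), while Dmp1 (88.7 RPM) and Smpd3 (458 RPM) were highest in control 3 and Smpd3 was lowest in mutant 1 (64.7 RPM). Endothelial markers were more even, at 243 to 308 RPM in controls and 200.4 to 296 RPM in mutants. Cartilage markers summed to 105 to 148 RPM in controls and 83.5 to 123 RPM in mutants, most of it Sox9 (72.4 to 118 RPM), while the matrix genes Col2a1 and Acan ranged 5.28-fold and 4.62-fold over libraries.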
